A study of Mus musculus with 12 samples.

Results

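The miR-130/miR-301 and miR-148/miR-152 families were followed in mouse hearts through 6 mature miRNAs. These were mmu-miR-130a-3p, mmu-miR-130b-3p and mmu-miR-301a-3p of the first family and mmu-miR-148a-3p, mmu-miR-148b-3p and mmu-miR-152-3p of the second, written below without the species prefix. They were taken by name from the 1881 miRNAs on the array, by a rule that names no measured value but was set with earlier results of these arrays known. MiR-130a-3p, miR-148a-3p and miR-301a-3p belong to the miRNAs that the study drew from these same arrays by their pattern over C, D and D + P, so that their directions in those comparisons are not independent evidence, and miR-152-3p was among those it took on to qRT-PCR. The study describes the miRNAs it drew as unaffected in C + P. The sign of their interaction, defined below, is therefore not independent evidence either.

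MiRNAs were measured on 12 one-colour arrays, 1 for the heart of each of 3 mice in 4 groups. All were male C57BL6/J mice, 6 to 7 weeks old at the start and labelled 5 months old at sampling. Controls without pargyline are called C, and controls given the monoamine oxidase (MAO) inhibitor pargyline at 50 mg/kg/day for 12 weeks are called C + P. D mice were made diabetic with streptozotocin, a compound toxic to pancreatic β-cells, at 50 mg/kg/day on 5 consecutive days, and D + P mice received the same streptozotocin and the same pargyline as C + P. The protocol gave vehicle in place of pargyline to mice not assigned to it, whereas the series' design text calls C untreated. A blood glucose of 17 mM or more counted as diabetes, and the labels describe this as a model of type 1 diabetes. The tissue is labelled heart muscle, although the extraction text of the same records names macrophages. The C and D arrays shared a slide, and the C + P and D + P arrays shared the other slide, so that pargyline and slide cannot be told apart in any comparison of a treated with an untreated group. Diabetic and non-diabetic hearts were compared within each slide. On both slides, however, all non-diabetic hearts lay in the first row of arrays and all diabetic hearts in the second. Diabetes and row therefore cannot be told apart in these comparisons, and the part of the row was not tested.

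A mature miRNA guides its protein complex to messenger RNAs mainly through its seed, the short stretch near its 5′ end that pairs with the target, and miRNAs with the same seed are counted as a family because they can bind the same sites. The miR-130/miR-301 family is known for its abundance in vessels and for repressing regulators of vascular and endothelial growth, and in the pulmonary circulation it has been tied to PPARγ. The miR-148/miR-152 family is known for repressing the DNA methyltransferase DNMT1, and miR-148a is best known as an abundant liver miRNA.

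The mature sequences are shown because the families differ in the position of an otherwise common stretch, and because the paralogs compared below differ at few bases. They are from RefSeq (GRCm38.p6), in which all 6 members were matched, and are written 5′ to 3′ with the seed, bases 2 to 8, in capitals.
miR-130a-3p: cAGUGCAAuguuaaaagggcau
miR-130b-3p: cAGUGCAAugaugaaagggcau
miR-301a-3p: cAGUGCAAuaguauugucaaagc
miR-148a-3p: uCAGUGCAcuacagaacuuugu
miR-148b-3p: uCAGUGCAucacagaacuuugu
miR-152-3p: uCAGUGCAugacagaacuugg

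All 6 members held the run CAGUGCA, at bases 1 to 7 in the miR-130/miR-301 family and at bases 2 to 8 in the miR-148/miR-152 family. The run was 7 bases long and was the longest that the first 8 bases of all members had in common. Of the 1608 array miRNAs with a sequence in the table, 10 held it within their first 8 bases, or 0.622%. The 4 that were not members were miR-130c, miR-721, miR-6341 and miR-6389, and of these miR-721 alone was detected, on 1 array. The families therefore overlapped in a 7-base word but had different seeds, AGUGCAA and CAGUGCA.

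Past the seed, the paralogs differed to an unequal degree. Counting positions from 1 at the 5′ end, with the base of the first named miRNA in front, miR-130a-3p and miR-130b-3p were identical at 20 of 22 positions (U11A and A13G). MiR-130a-3p and miR-301a-3p were identical at 12 of 22. MiR-148a-3p and miR-148b-3p were identical at 20 of 22 positions (C9U and U10C), and miR-148a-3p and miR-152-3p at 18 of 21 (C9U, U10G and U20G). MiR-148b-3p and miR-152-3p were identical at 19 of 21 (C10G and U20G). Probes for paralogs this alike may bind each other's target, and the part of such binding in the values below was not tested.

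Each member came from a locus of its own in GRCm38.p6. The mature miR-130a-3p lies at chr2:84741116-84741137 on the minus strand, where no other annotated gene overlaps it. MiR-130b-3p lies at chr16:17124071-17124092 on the minus strand, within the span of 2610318N02Rik, and miR-301a-3p at chr11:87113054-87113076 on the plus strand, within Ska2, a gene of chromosome segregation. MiR-148a-3p lies at chr6:51269829-51269850 on the minus strand and overlaps the predicted gene Gm38821. MiR-148b-3p lies at chr15:103285185-103285206 on the plus strand within Copz1, and miR-152-3p at chr11:96850439-96850459 on the plus strand within Copz2. Copz1 and Copz2 encode alternative forms of the same subunit of the vesicle coat, so that these paralogous miRNAs sit in paralogous hosts.

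The arrays were not alike in strength. The number of miRNAs detected per array was 144 to 163 for C, 165 to 203 for D, 187 to 218 for D + P and 214 to 253 for C + P, and the summed signal ran from 27107 on a C array to 89040 on a C + P array. Scanner signals of the members are therefore given first as measured and then after normalization. Of 6 heart muscle markers 5 were detected on all 12 arrays, and miR-208b-3p, which marks the fetal programme of the ventricle, was detected on none. Heart muscle markers made up 12.6 to 13.5% of the summed signal for C, 16.8 to 19.8% for C + P, 16.2 to 19.9% for D and 7.92 to 17.1% for D + P. The leukocyte markers, of which 2 of 5 were detected on all arrays, made up 0.045 to 0.0738% for C, 0.135 to 0.165% for C + P, 0.0799 to 0.102% for D and 0.0262 to 0.104% for D + P. Endothelial markers (1 of 2 detected throughout) lay at 1.27 to 1.31%, 1.72 to 2.2%, 1.68 to 1.99% and 0.824 to 1.76% in C, C + P, D and D + P, and fibroblast and smooth muscle markers (4 of 5) at 0.232 to 0.242%, 0.323 to 0.399%, 0.306 to 0.358% and 0.231 to 0.37%. The 3 red cell markers on the array were detected throughout, at 1.42 to 1.88%, 1.22 to 1.71%, 1.58 to 1.76% and 0.922 to 1.58%, and the liver marker miR-122-5p was detected on no array. In D against C, 3 of the 4 fibroblast and smooth muscle markers tested (miR-199a-3p 0.91, miR-199a-5p 0.65 and miR-143-3p 0.47 log2) and 1 of 2 leukocyte markers (miR-223-3p, 1.03) passed as higher by limma after normalization, as described below. Of the heart muscle markers 1 was higher (miR-1a-3p, 1.32) and 1 lower (miR-208a-3p, -0.78), and 1 red cell marker was lower (miR-144-3p, -0.57). Of the 128 miRNAs detected on all arrays, 24.2% passed as higher and 50% in either direction. In C + P against C the fibroblast and smooth muscle and leukocyte counts were again 3 and 1, higher. There 1 heart muscle marker was higher and 1 red cell marker lower, against 36.7% of the 128. In D + P against D they were 1 and 2, lower, with 2 heart muscle markers lower and 1 red cell marker higher, against 53.9%. In D + P against C + P, 1 fibroblast and smooth muscle, 2 leukocyte and 2 heart muscle markers were lower and 1 red cell marker higher, against 13.3%. The part of array strength, of these shares and of these markers in the members' values was not tested.

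The 6 members fell into well detected and faint ones. MiR-130a-3p, miR-148a-3p and miR-152-3p were detected on all 12 arrays, miR-301a-3p on 8, miR-148b-3p on 5 and miR-130b-3p on none. Each family thus had at least 1 paralog that could be followed in every heart and at least 1 that could not. The signal divided by the scanner software's own error lay between 11.5 and 13.9 for miR-130a-3p, 6.56 and 13.5 for miR-148a-3p and 6.31 and 12.8 for miR-152-3p, but between 3.48 and 7.23 for miR-301a-3p and between 3.17 and 4.82 for miR-148b-3p where these were detected. The lowest signal called detected was 1.34 to 2.24 per array, so that the faint members lay at most 7.67 times above it. Since probes respond unequally, signals are compared between arrays for each miRNA and not between miRNAs.

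**Figure D1:**
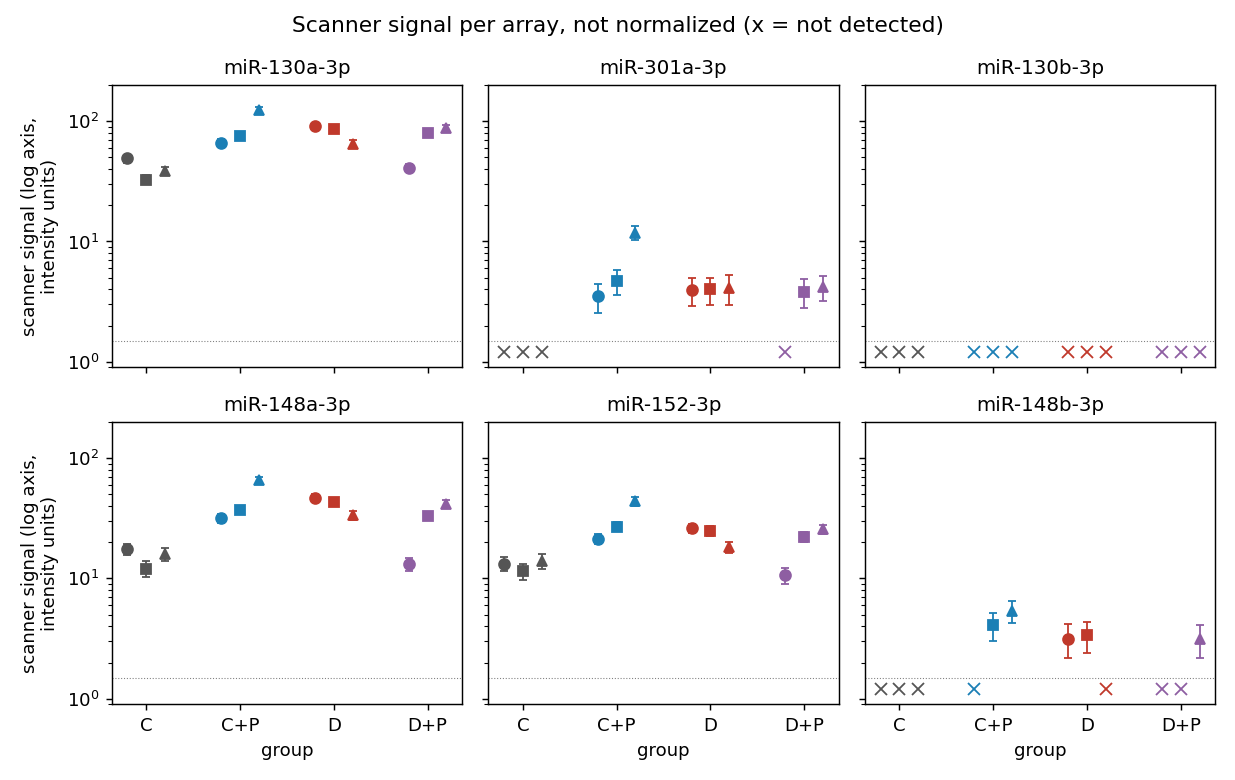
Scanner signal of each member on each array before normalization (intensity units, log axis), by group; circles, squares and triangles are replicates 1, 2 and 3, bars are the scanner software's error of that array, and a cross below the dotted line marks an array on which the miRNA was not detected. The upper row holds the miR-130/miR-301 family and the lower row the miR-148/miR-152 family; miR-130b-3p was detected nowhere, and the faint members were missing from all 3 C arrays.

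MiR-130a-3p, known as a pro-angiogenic miRNA of endothelial cells, gave scanner signals of 49.0, 32.6 and 38.7 in C, 65.6, 75.3 and 123 in C + P, 90.3, 86.1 and 64.9 in D and 40.7, 79.1 and 87.4 in D + P. The C arrays lay below all C + P and D arrays, and the first D + P array lay among the C arrays. The summed signal of the C arrays, at most 35028, also lay below that of every D and C + P array, at least 48104. The share of all miRNAs with scanner signals in this order is not given, so the order does not set the members apart. MiR-301a-3p, which is known as an activator of NF-κB signaling through its target NKRF, was detected on no C array. Its signals were 3.51, 4.68 and 11.9 in C + P, 3.93, 3.99 and 4.12 in D, and 3.82 and 4.18 on the second and the third D + P array, with none on the first. The D and D + P signals that were detected overlapped. MiR-130b-3p had no signal on any array, so it has no level to compare.

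MiR-148a-3p gave scanner signals of 17.4, 12.1 and 15.98 in C, 31.6, 37.2 and 65.2 in C + P, 46.6, 43.4 and 33.7 in D and 13.2, 33.05 and 41.7 in D + P. MiR-152-3p gave 13.3, 11.5 and 13.9 in C, 21.3, 26.9 and 43.8 in C + P, 26.2, 24.9 and 18.2 in D and 10.6, 22.1 and 25.7 in D + P. For both, every C array lay below every C + P and D array, and the first D + P array lay among the C arrays for miR-148a-3p and below them for miR-152-3p. As above, the C arrays were also the weakest in summed signal, and no share of all miRNAs in this order is given. MiR-148b-3p, the remaining paralog, was detected on the second and the third C + P array at 4.10 and 5.39, the first and second D arrays at 3.16 and 3.38, and the third D + P array at 3.14. It was detected on no C array and on no group's full set of arrays, and was therefore not tested.

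Detection of miR-301a-3p moved with the strength of the array, and that of miR-148b-3p did so in part. MiR-301a-3p was detected on the 8 arrays with a summed signal of 48104 or more and on none with 39661 or less. MiR-148b-3p was detected on arrays with 179 to 253 detected miRNAs and a summed signal of 53149 or more, and missing on arrays with 144 to 218 and up to 57895. Of all 1881 miRNAs, 1.01% were, like miR-301a-3p, detected on every D and no C array, and 2.29% on every C + P and no C array, whereas 0.0532% were detected on every C and no D array. Whether miR-301a-3p was absent from the C hearts or below what these weaker arrays could show cannot be told apart.

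The remaining miRNAs of the families added little signal. MiR-301b-3p and miR-130c were detected on no array, and miR-721 on the third C + P array alone, at 1.67. The passenger strands (miR-130a-5p, miR-130b-5p, miR-301a-5p, miR-301b-5p, miR-148a-5p, miR-148b-5p and miR-152-5p), which pair with the mature strand in the precursor and are mostly degraded, were 7 in number and were detected on no array.

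For comparison between groups, the 128 miRNAs detected on all 12 arrays were normalized together by cyclic loess, which the study also named, and are given as log2 values. This is an intensity-dependent smoothing, run here for each array against the average of all arrays. MiR-130a-3p had normalized log2 signals of 6.10, 5.72 and 5.78 in C, 5.90, 5.90 and 5.89 in C + P, 6.19, 6.29 and 6.09 in D and 5.81, 6.06 and 6.07 in D + P. MiR-148a-3p had 4.57, 4.31 and 4.53 in C, 4.86, 4.91 and 5.06 in C + P, 5.27, 5.37 and 5.10 in D and 4.04, 4.75 and 4.98 in D + P. MiR-152-3p had 4.14, 4.24 and 4.32 in C, 4.29, 4.43 and 4.49 in C + P, 4.47, 4.66 and 4.32 in D and 3.598, 4.13 and 4.32 in D + P. D held the highest group mean of each of these 3 miRNAs. Only for miR-148a-3p did every D array also lie above every array of the other groups. The first D + P array held the lowest value of both miR-148a-3p and miR-152-3p over all 12 arrays.

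**Figure D2:**
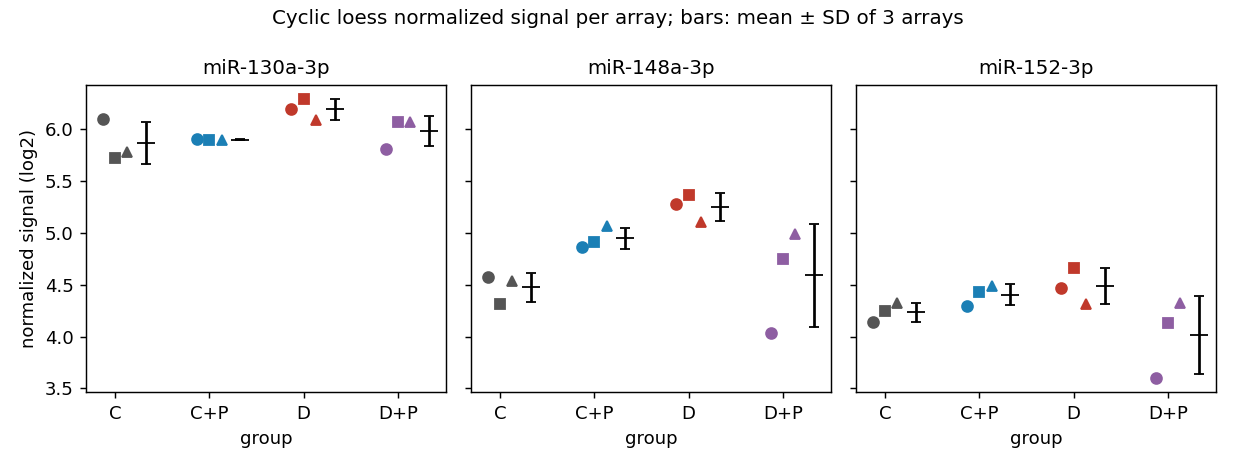
Cyclic loess normalized log2 signal of the 3 members detected on all arrays, by group; circles, squares and triangles are replicates 1, 2 and 3, and the black bars give the mean ± SD of 3 arrays. MiR-148a-3p runs from 4.47 ± 0.14 in C to 5.25 ± 0.13 in D, while miR-130a-3p spans the narrowest range, and the first D + P array (circle) lies lowest for miR-148a-3p and miR-152-3p.

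The order of the group means was C, C + P, D + P, D for miR-130a-3p, at 5.87 ± 0.20, 5.90 ± 0.0031, 5.98 ± 0.15 and 6.19 ± 0.10 (SD, n = 3 each). For miR-148a-3p it was C, D + P, C + P, D, at 4.47 ± 0.14, 4.59 ± 0.49, 4.95 ± 0.10 and 5.25 ± 0.13. For miR-152-3p it was D + P, C, C + P, D, at 4.02 ± 0.37, 4.23 ± 0.092, 4.40 ± 0.10 and 4.48 ± 0.17. No step between neighbours in these orders passed the test by limma. The largest was the step of miR-148a-3p from D + P to C + P (difference of D + P from C + P, -0.36 log2, adjusted p = 0.198). The steps that cross both treatment and slide, D + P against C and D against C + P, passed for none of the 3 members and for 1.56% and 3.12% of all 128 miRNAs. Over the 12 arrays the SD was 0.17 for miR-130a-3p, 0.39 for miR-148a-3p and 0.26 for miR-152-3p, against a median of 0.35 over the 128, so that miR-130a-3p ranked 14th from the least variable.

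Diabetes without pargyline was examined by D against C, both on the first slide but in different rows of it. MiR-148a-3p was 1.71-fold higher in D than in C, by 0.77 ± 0.21 on the log2 scale (SE, n = 3 and 3, 95% interval 0.33 to 1.22), and the groups did not overlap (limma, adjusted p = 0.0107). MiR-130a-3p differed by 0.32 ± 0.13 (adjusted p = 0.0649) and miR-152-3p by 0.25 ± 0.18 (adjusted p = 0.237), and the groups overlapped for both. MiR-301a-3p was tested among the 209 miRNAs detected on every array of at least 1 group, where a value not detected was replaced by the weakest signal detected on the same array. On that scale its C values were 1.499, 1.67 and 1.64, all such settings, and its D values 1.81, 2.29 and 2.43. The D mean was 1.49-fold above these replacements under this normalization and did not pass (0.58 ± 0.22, adjusted p = 0.0537). This sets no lower limit on the fold, since the true level of a miRNA called undetected can exceed the replacement, and the difference was 0.19 after scaling to the 75th percentile and 0.073 with 16 added before the log2. Of the 2 groups compared, D alone met the detection filter, which favours a higher value in D. In such whole-heart RNA, fewer cells of a type and less RNA per cell cannot be told apart.

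In all, 1 of 4 tested members passed in D against C. Of all miRNAs tested, 50% of the 128 and 46.9% of the 209 passed, 24.2% of the 128 as higher in D, so that the call of 1 member does not set the members apart from the array. The groups did not overlap for 69.5% of the 128. The median difference of the 3 well detected members was 0.32, against 0.022 over the 128. The call of miR-148a-3p was lost when the second C array was left out (0.68, adjusted p = 0.0512) and kept with each of the other 11 left out in turn and in 12 of 14 other settings. MiR-130a-3p passed without the first C array (0.43, adjusted p = 0.0294) or the first D + P array (0.30, adjusted p = 0.0278), and miR-301a-3p without the first D (0.75, adjusted p = 0.0351), the first D + P (0.59, adjusted p = 0.0224) or the third D + P array (0.57, adjusted p = 0.0447). For miR-301a-3p these passes support no difference, since the detection filter favours its higher value in D.

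Diabetes under pargyline was examined by D + P against C + P, both on the second slide but in different rows of it. None of the 4 tested members passed by limma, against 13.3% of the 128 and 5.74% of the 209, and 2 of the 4 had an unadjusted p under 0.05. The share of all miRNAs under that unadjusted threshold is not given, so such counts, here and below, do not set the members apart. MiR-148a-3p differed by -0.36 (adjusted p = 0.198), miR-152-3p by -0.39 (adjusted p = 0.111) and miR-301a-3p by -0.49 (adjusted p = 0.145), while miR-130a-3p differed by 0.084 (adjusted p = 0.617). The groups overlapped for all 4, whereas they did not overlap for 43% of the 128. With the third D + P array left out, miR-148a-3p (-0.56, adjusted p = 0.0286), miR-152-3p (-0.54, adjusted p = 0.0182) and miR-301a-3p (-0.63, adjusted p = 0.0493) passed as lower in D + P. Of these 2 groups, miR-301a-3p met the detection filter through C + P alone, which favours its lower value in D + P. The median of the 3 well detected members was -0.36, against 0.018 over the 128.

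Averaged over both slides, the difference between diabetic and non-diabetic hearts was 0.20 for miR-130a-3p, 0.21 for miR-148a-3p, -0.069 for miR-152-3p and 0.042 for miR-301a-3p. None passed by limma (adjusted p = 0.305, 0.470, 0.785 and 0.903), against 1.56% of the 128 and 1.91% of the 209, and 0 of the 4 had an unadjusted p under 0.05. Without the first D + P array, miR-130a-3p (0.24, adjusted p = 0.0404) and miR-148a-3p (0.34, adjusted p = 0.0135) passed, and miR-152-3p turned to 0.028.

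**Figure D3:**
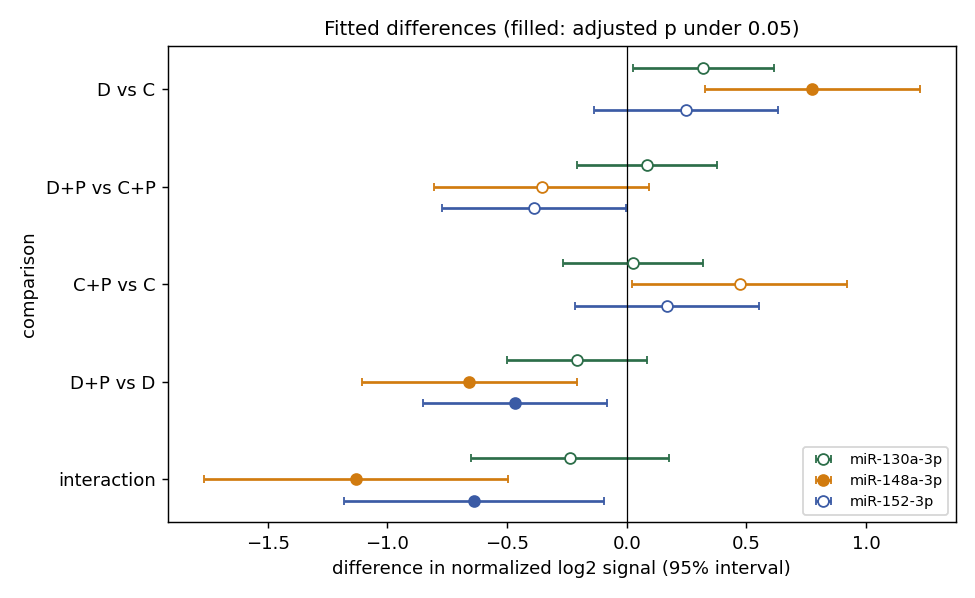
Fitted differences of the 3 members detected on all arrays in normalized log2 signal, with 95% intervals, by comparison; the interaction is D + P minus C + P less D minus C, and filled points have an adjusted p under 0.05. MiR-148a-3p is higher in D than in C and lower in D + P than in D, miR-152-3p is filled in the lower comparisons alone, and miR-130a-3p has no filled point.

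Pargyline was examined without diabetes by C + P against C and with diabetes by D + P against D, in each of which treatment and slide cannot be told apart. In C + P against C none of the 4 tested members passed by limma, against 36.7% of the 128 and 18.2% of the 209. MiR-148a-3p differed by 0.47 ± 0.21 (adjusted p = 0.0833), the groups did not overlap, and it was the 1 member with an unadjusted p under 0.05. The groups did not overlap for 75.8% of the 128. MiR-130a-3p differed by 0.028 (adjusted p = 0.860), miR-152-3p by 0.17 (adjusted p = 0.430) and miR-301a-3p by 0.044 from the replacements in C (adjusted p = 0.882), a value that was -0.10 without the third C + P array and -2.05 in the authors' values. MiR-148a-3p passed when the first D + P array (0.45, adjusted p = 0.00568) or the third (0.48, adjusted p = 0.0382) was left out, and when C and C + P alone entered the fit (adjusted p = 0.00401).

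In D + P against D, miR-148a-3p and miR-152-3p passed of the 3 well detected members, both lower in D + P, against 53.9% of the 128 in either direction and 27.3% as lower. MiR-148a-3p was 1.58-fold lower in D + P (-0.66 ± 0.21, adjusted p = 0.0254) without overlap of the groups, and miR-152-3p was 1.38-fold lower (-0.47 ± 0.18, adjusted p = 0.0446) with overlap. MiR-301a-3p differed by -1.02 ± 0.22 (adjusted p = 0.00968, against 47.8% of the 209 called in either direction and 23.4% as lower). Among the 2 groups compared it met the detection filter through D alone, which favours a lower value in D + P, so this p supports no difference. Its normalized D + P values were 0.76 (a setting for the undetected first array), 1.28 and 1.42, which lay below those set for the undetected C arrays, whereas the scanner signals detected in D + P lay around those in D. MiR-130a-3p differed by -0.21 (adjusted p = 0.181), without overlap, as was so for 56.2% of the 128. The medians were -0.47 for the 3 well detected members and -0.086 for the 128. The D arrays entered both this comparison and D against C, so that the opposite signs for miR-148a-3p are not independent.

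These lower values in D + P held unequally. MiR-148a-3p no longer passed without the first D array (-0.67, adjusted p = 0.0622), the second D array (-0.62, adjusted p = 0.0788) or the first D + P array (-0.35, adjusted p = 0.0662). MiR-152-3p passed only when the third D array (-0.55, adjusted p = 0.0444) or the third D + P array (-0.63, adjusted p = 0.00672) was left out, with values of -0.52 to -0.25 and an adjusted p of up to 0.147 without any other array, and it did not pass among the 209 miRNAs (-0.39, adjusted p = 0.0840). The value of miR-301a-3p ranged widely with the setting, at -0.63 after quantile normalization, -0.17 after scaling to the 75th percentile, -0.43 without normalization, -0.17 with 16 added before the log2 and -2.88 in the authors' values. Of 13 other settings, 4 kept the call for miR-148a-3p, 2 for miR-152-3p and 6 for miR-301a-3p. For miR-301a-3p these include the fit over the 209 miRNAs, which is its main fit and no alternative.

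Whether the difference between diabetic and non-diabetic hearts was the same with and without pargyline was tested by the interaction, to which an additive difference between slides does not contribute. It was -1.13 ± 0.29 for miR-148a-3p (adjusted p = 0.00603), -0.64 ± 0.25 for miR-152-3p (adjusted p = 0.0369), -1.07 ± 0.32 for miR-301a-3p (adjusted p = 0.0161) and -0.24 ± 0.19 for miR-130a-3p (adjusted p = 0.289). Of the 3 well detected members 2 passed, both with a lower value under pargyline, against 70.3% of the 128 in either direction and 35.2% with a lower value. For the 209 these shares were 58.9% and 29.2%. MiR-301a-3p met the detection filter through D and C + P alone, the groups that enter the interaction with a negative sign, so that the filter favours its negative value and the p supports no difference. The pattern by which the study drew miR-148a-3p from these arrays makes its interaction negative, so its p is not independent evidence. MiR-148a-3p passed with any 1 array left out. MiR-152-3p passed in 5 of 12 such fits, with values of -0.79 to -0.41. It lost the call without any 1 of the C arrays, the second or the third C + P array, or the first or second D array, with values of -0.68 to -0.55 and an adjusted p of up to 0.0923. Of 11 other settings, 10 kept the call for miR-148a-3p, 7 for miR-152-3p and 6 for miR-301a-3p. Without normalization miR-130a-3p passed too (-1.38, adjusted p = 0.0184), where the median of the 128 was -1.17. Among the 209 miRNAs miR-152-3p did not pass (-0.45, adjusted p = 0.138).

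The normalization set how large the members' differences were. Without it the median of all 128 miRNAs was 0.77 log2 higher in D than in C and 1.15 higher in C + P than in C, against -0.12 in D + P against D and -0.41 in D + P against C + P. In D against C, miR-148a-3p differed by 0.77 after cyclic loess, 0.69 after quantile normalization, 0.61 after scaling to the 75th percentile of the 128 and 1.45 without normalization, which was 0.68 above the unnormalized median. MiR-130a-3p differed by 0.32, 0.43, 0.17 and 1.01 in that order and lay 0.24 above the unnormalized median. MiR-152-3p differed by 0.25, 0.32, -0.015 and 0.83, so that its sign turned under the scaling, and it lay 0.059 above the unnormalized median. In D + P against D, miR-148a-3p differed by -0.66, -0.61, -0.37 and -0.63, and miR-152-3p by -0.47, -0.51, -0.059 and -0.32. MiR-130a-3p differed there by -0.21, -0.42, -0.016 and -0.28. Of the 3, miR-148a-3p had the largest difference under each of these settings in both comparisons.

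**Figure D4:**
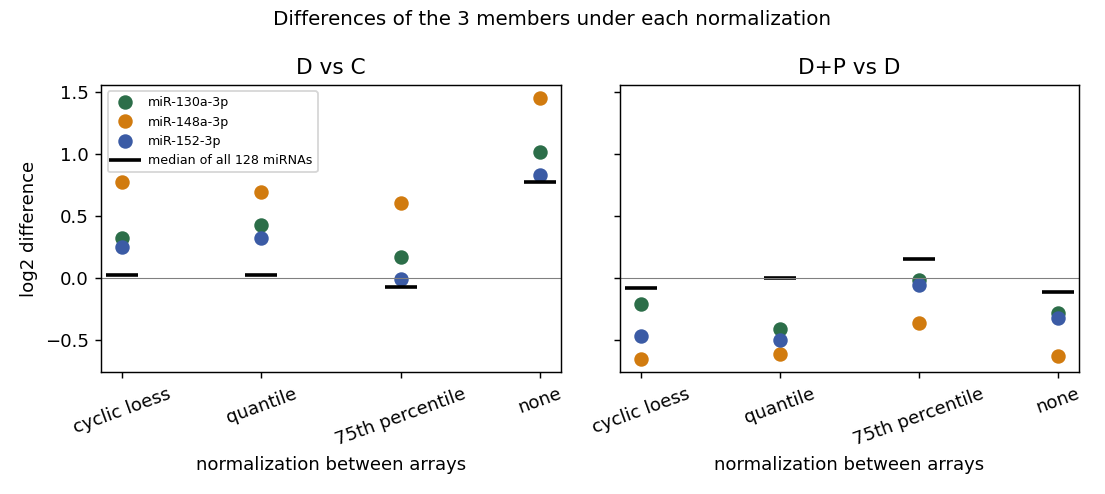
Log2 difference of the 3 members detected on all arrays in D against C (left) and D + P against D (right) under each normalization between arrays; the black bar is the median of all 128 miRNAs under the same setting. MiR-148a-3p lies farthest from the bar in every column, and without normalization the bar itself stands at 0.77 in D against C.

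MiR-152-3p was compared with its paralogs by the log2 difference within each array, which any scaling by a single factor per array leaves as it is. A difference between probes has no meaning by its size, so only its change between groups is read. From the scanner signals, miR-152-3p minus miR-148a-3p was -0.39, -0.071 and -0.20 in C, -0.57, -0.47 and -0.58 in C + P, -0.83, -0.80 and -0.89 in D and -0.32, -0.58 and -0.70 in D + P. Every D array lay below every other array, every C array lay above the C + P arrays, and the D + P arrays overlapped C and C + P. After cyclic loess the means were -0.24 ± 0.19 in C, -0.54 ± 0.051 in C + P, -0.76 ± 0.054 in D and -0.57 ± 0.12 in D + P (SD, n = 3 each).

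**Figure D5:**
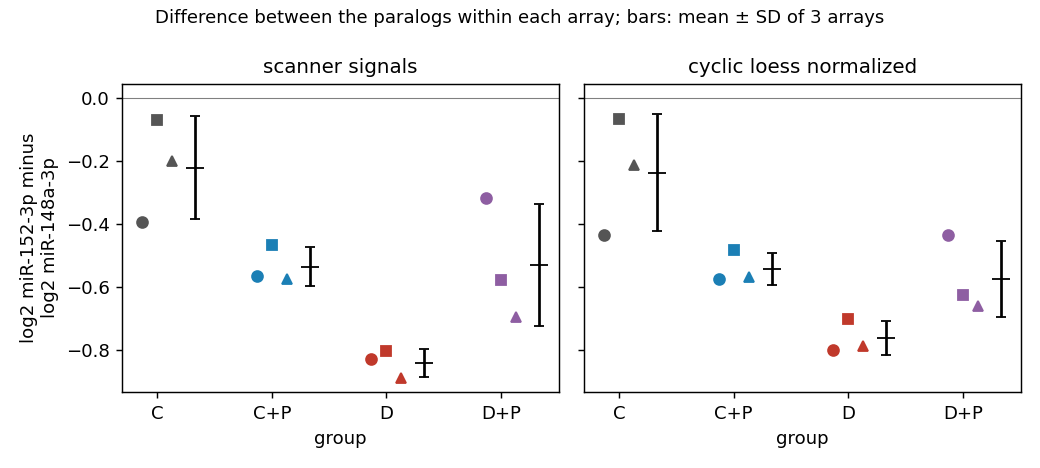
Log2 signal of miR-152-3p minus that of miR-148a-3p within each array, from scanner signals (left) and after cyclic loess (right), by group; circles, squares and triangles are replicates 1, 2 and 3, and black bars give the mean ± SD of 3 arrays. The D arrays lie lowest and the C arrays highest on average in both panels, and C + P and D + P lie between them.

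Diabetic and non-diabetic hearts differed in this measure by -0.28 log2 over both slides (two-sided exact permutation test of group labels within slides, p = 0.03, adjusted p = 0.06 over the 2 pairs of family members that could be tested of 6 listed, smallest possible p = 0.005). The difference was -0.53 on the first slide, where D and C did not overlap, and -0.031 on the second. The study drew miR-148a-3p from these arrays by a pattern with a higher value in D, which favours a lower difference in D. The p-values of this measure are therefore not independent evidence. It did not pass after the adjustment, and it was -0.14 after quantile normalization (adjusted p = 0.49) and -0.31 without normalization (adjusted p = 0.11, exact permutation test). With the first D + P array left out it was -0.32 and passed (adjusted p = 0.01 by the exact permutation test). Without any other single array it did not pass (adjusted p of up to 0.17), nor in the authors' values (-0.36, adjusted p = 0.08, same test).

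In the other family, miR-301a-3p minus miR-130a-3p differed by -0.15 between diabetic and non-diabetic hearts (two-sided exact permutation test, p = 0.47, adjusted p = 0.47), with 0.22 on the first slide and -0.52 on the second. The C arrays and the first D + P array entered with miR-301a-3p set to the lowest detected signal, so these values depend on that setting. The 4 pairs with miR-130b-3p or miR-148b-3p could not be tested.

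The similarity of the members' patterns was described by the root mean square difference between their log2 signals over the 12 arrays, after each miRNA was centred on its own mean. MiR-148a-3p and miR-152-3p differed by 0.211, and miR-152-3p was the 19th nearest of 127 other miRNAs to miR-148a-3p. MiR-130a-3p differed by 0.233 from miR-152-3p and 0.275 from miR-148a-3p, and these ranked 32nd and 43rd from it. The nearest miRNAs to each member were not of its family.

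MiR-140-3p (0.0986), miR-30e-3p (0.120) and miR-99a-5p (0.142) were nearest to miR-130a-3p, for which the median over the other miRNAs was 0.386. MiR-93-5p (0.0877), miR-107-3p (0.120) and miR-195a-5p (0.124) were nearest to miR-148a-3p, with a median of 0.470. MiR-103-3p (0.104), miR-199b-5p (0.118) and miR-15a-5p (0.121) were nearest to miR-152-3p, with a median of 0.404. MiR-107-3p and miR-103-3p are near-identical paralogs of each other, and miR-195a-5p and miR-15a-5p share a seed, so that related miRNAs stood near both miR-148a-3p and miR-152-3p.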

How the data were processed

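MiRNAs were measured on Agilent mouse miRNA arrays, 1 per heart. The authors deposited the Feature Extraction intensity of each miRNA with an error and a detection flag, not normalized between arrays, with 0.1 in place of undetected signals. The authors also deposited values normalized after a detection filter, used here as an alternative. Arrays were grouped by their titles. For the 128 miRNAs detected on all 12 arrays, log2 signals were brought together by cyclic loess in limma 3.58.1 under R 4.3.3 (span 0.7, 3 iterations). The 4 groups were then fitted jointly (lmFit, eBayes), with Benjamini-Hochberg adjustment over all miRNAs of the fit and a threshold of 0.05. MiR-301a-3p came from the same fit over 209 miRNAs. The fits and the permutation test were tested on simulated data. The members, lists and tests were chosen with earlier results of these data known. Named miRNAs are the members, their families and passenger strands, and the 3 nearest in pattern to each well detected member; other miRNAs are named as seed matches or tissue markers.

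Replicate numbers in the titles stand for different mice. Arrays of the same number did not deviate together (correlations of -0.37 to 0.49 over 18 pairs, median -0.14), so no pairing was used. No arrays held identical values. The number of arrays limits the precision. Alternatives were other normalizations and detection filters, 16 added before the log2, the authors' values, an intensity trend, a replicate block, only the 2 groups compared, leaving out every array once, and the methods' t-test.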

Additional observations from a re-analysis of the deposited data

Results flagged for a closer look

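In the limma fit the interaction passed for miR-148a-3p and miR-152-3p, and a value for miR-301a-3p also passed. It compares the difference between diabetic and non-diabetic hearts with and without pargyline. It was -1.13 log2 for miR-148a-3p, which differed by 0.77 in D against C and by -0.36 in D + P against C + P. The study drew miR-148a-3p from these arrays by a pattern that makes this value negative, so its p is not independent evidence. It was -0.64 for miR-152-3p, at 0.25 and -0.39. It was -1.07 for miR-301a-3p, at 0.58 and -0.49, but this miRNA met the detection filter through D and C + P alone, which favours a negative value, so its p supports no difference. The interaction passed for 70.3% of the 128 miRNAs with a signal on every array. The pair of differences lay on different slides, and the part of the slide in them beyond an additive shift was not tested.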

How the results depend on the processing

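Of 592 results of single members under another setting or with 1 array left out, 485 kept their direction and their side of the threshold. Members passing in D against C (1 of 4) were 2 without normalization, with 16 added, with only the 2 groups compared and with the replicate block (miR-301a-3p 0.58, adjusted p = 0.0242), and 0 without a detection filter and by the methods' t-test with Holm adjustment. In C + P against C (0) they were 4 without normalization and 1 with only the 2 groups compared and by the t-test with Benjamini-Hochberg adjustment. In D + P against D (3) they were 1 after quantile normalization and in the authors' values, and 0 after scaling to the 75th percentile of the 128, without normalization, without a filter, with only the 2 groups compared and by the t-test under both adjustments. For the interaction (3) they were 4 without normalization, where miR-130a-3p was -1.38 (adjusted p = 0.0184), 1 after scaling to the 75th percentile of the 128 and in the authors' values, and 0 without a filter. The counts of D + P against D and of the interaction include miR-301a-3p, whose sign there the detection filter favours. It also favours a higher value of this miRNA in D against C and in C + P against C. The passes of miR-301a-3p therefore support no difference. The share of all miRNAs that passed under each other setting, or with 1 array left out, is not given, so these counts do not set the members apart. Without normalization the median of the 128 was itself 0.77 higher in D than in C and 1.15 higher in C + P than in C. Without a filter all 1881 miRNAs entered the adjustment. The 75th percentile of all miRNAs was the undetected value on every array, so scaling to it equalled no normalization and gave the same counts. The replicate block, whose numbers name different mice, changed no other count.

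With 1 array left out, the count ranged from 0 to 3 in D + P against C + P and likewise in D against C, 0 to 1 in C + P against C, 1 to 3 in D + P against D, 0 to 2 over both slides and 2 to 3 for the interaction. MiR-152-3p minus miR-148a-3p ranged from -0.33 to -0.23 and miR-301a-3p minus miR-130a-3p from -0.24 to -0.059.

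Directions turned for values that had not passed. MiR-130a-3p in D + P against C + P was -0.098 after quantile normalization, -0.37 without normalization and -0.13 in the authors' values, and in C + P against C it ranged from -0.046 to 0.14 with 1 array left out. MiR-152-3p in D against C was -0.015 after scaling to the 75th percentile, and over both slides it was 0.072 without normalization and ranged from -0.14 to 0.028 with 1 array left out. MiR-301a-3p over both slides was -0.13 after that scaling and -0.018 with 16 added, and ranged from -0.030 to 0.14 with 1 array left out. In C + P against C it was -2.05 in the authors' values and ranged from -0.10 to 0.15 with 1 array left out, and its difference from miR-130a-3p over both slides was 0.18 in the authors' values. Except where named, the cause of these shifts was not tested.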
